A study of Rattus norvegicus with 30 samples.

Results

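The liver senses body iron and answers with hepcidin, and 9 genes of this circuit were followed in the livers of 30 rats. They are Hamp, which encodes hepcidin, the transferrin receptors Tfr2 and Tfrc, transferrin itself (Tf), the iron-regulatory protein Aco1, the hemochromatosis gene Hfe, the iron exporter Slc40a1, the ligand Bmp6 and its target Id1. Every probe set annotated to 1 of these symbols alone was taken, whatever its level, which gave 14 probe sets for 8 of the 9 genes, out of 31042 probe sets tested and 14217 genes on the array. Both probe sets of Tf carry a second symbol, Srprb, so no value is given for transferrin.

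Hepcidin is a peptide that hepatocytes release into the blood, where it binds the exporter ferroportin, the product of Slc40a1, and sends it to degradation, so that less iron leaves macrophages, hepatocytes and the gut. Hepatocytes read iron in several ways. Iron-loaded transferrin is sensed at the cell surface by TFR2, HFE and the receptor encoded by Tfrc, and BMP6, made mainly by sinusoidal endothelial cells, acts through BMP receptors and SMAD proteins to raise transcription of Hamp and of Id1. Inflammation raises Hamp through IL-6 and STAT3, whereas blood loss and demand from red cell production lower it. Inside cells, the protein encoded by Aco1 binds iron-responsive elements of mRNAs when iron is scarce, which stabilises the Tfrc mRNA and blocks translation of the ferroportin mRNA.

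All rats were female Sprague-Dawley animals aged about 10 weeks with free access to food, and RNA of the left liver lobe was hybridised to 1 array per rat. A group of 10 rats was handled for 1 day and another 10 rats were handled for 4 days, which meant weighing, restraint, water by gavage and repeated blood collection from the tail vein, and 10 control rats were left unhandled. The labels place the rats handled for 1 day and the control rats at 24 h and the rats handled for 4 days at 96 h. No unhandled group was sampled at 96 h, so for the rats handled for 4 days handling and the later time cannot be told apart. Both handled groups were compared with the same 10 control rats. Each value is an intensity on a linear scale on which every array averages about 1.

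Hepatocyte markers were high in every liver, with summed intensities of 383 to 418 after 1 day, 382 to 427 after 4 days and 374 to 423 in control rats. Control rats 1, 2 and 3 stood apart from the other 27 rats in a principal component analysis of all probe sets. Their scores on component 1, with 10.48% of the variance, were 73.6, 84.3 and 52.3, and the other rats ranged between -25.2 and 1.76. Values for these 3 rats are therefore given apart from control rats 4 to 10 for the genes described in full. RNA quality was followed by the Gapdh control probe sets. The log2 ratio of 3′ over 5′ signal was 0.662 to 0.828 after 1 day, 0.701 to 0.963 after 4 days and 0.550 to 0.701 in control rats, so it moved with handling. The direction of every change below follows the group labels. Genes that the study names as changed were looked up where a probe set of their own measured them. All 25 of these ran, by the labels, opposite to the printed direction in both comparisons with control. The study also describes control samples that differed from the rest of their group, and 3 of the rats labelled control here differed from the others. The cause of the opposite directions was not tested.

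Of the iron genes, Tfr2 was higher in the liver after both 1 and 4 days of handling, and 1 of 3 probe sets of Slc40a1 was higher after 4 days. Hamp itself did not pass the test at either time, and neither did Tfrc, Aco1, Hfe, Bmp6 or Id1. At an adjusted p under 0.1 over all probe sets, 1 of the 14 probe sets passed after 1 day, against 0.0902% of all probe sets. After 4 days 2 of 14 passed, against 0.657%. The genes were chosen with earlier results of these data known, so these shares are a description and no measure of enrichment. When the 4-day rats were set against the 1-day rats, 0 of the 14 passed and none had an unadjusted p under 0.05. Over all probe sets limma also called 0 in that comparison (0%), with 1551 at an unadjusted p under 0.05. The median log2 fold change of the 14 probe sets was 0.13 after 1 day and 0.15 after 4 days, beside -0.0035 and 0.0022 over all probe sets.

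**Figure D1:**
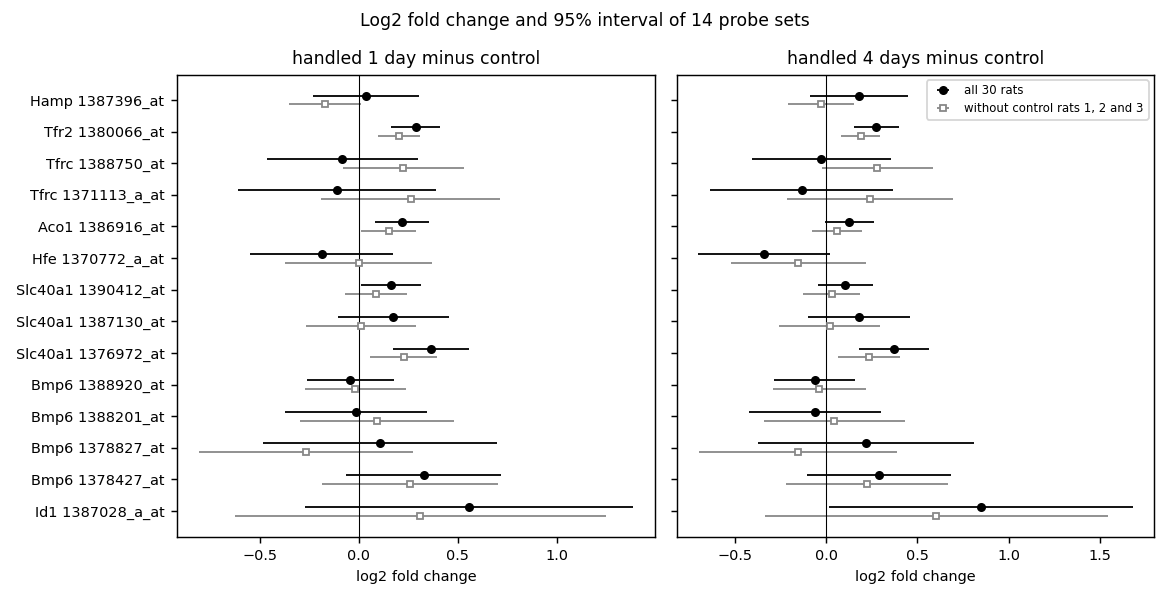
Log2 fold change against control (x axis) of each of the 14 probe sets (y axis) after 1 day (left) and 4 days (right) of handling, with 95% intervals. Filled circles use all 30 rats and open squares leave out control rats 1, 2 and 3. The intervals of Tfr2 and Slc40a1 1376972_at lie above 0 both ways at both times, and those of Aco1 do so after 1 day. Hamp and both Tfrc probe sets change sign when the 3 rats are left out, and their intervals span 0 both ways.

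The promoter of Hamp is where these signals meet, and the part of it that holds sequence matches for both the SMAD and the STAT inputs is shown because the levels of Hamp, Id1 and Stat3 are read against it below. It is the RefSeq sequence of the rat genome build GRCr8 at chr1:95300332-95300521 on the minus strand, from 250 to 61 bases before the annotated start. Capitals mark the BMP response element (GGCGCC), whose first base lies 129 bases before the start, and a STAT palindrome (TTCNNNGAA), whose first base lies 117 bases before it.
Hamp: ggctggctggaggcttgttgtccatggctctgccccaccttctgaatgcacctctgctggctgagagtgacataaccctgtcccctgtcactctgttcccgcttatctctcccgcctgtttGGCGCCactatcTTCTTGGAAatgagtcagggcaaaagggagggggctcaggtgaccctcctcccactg
Promoter windows from 250 bases before to 50 bases after the start were found for 8 of the 9 genes, all but Hfe. On either strand, GGCGCC occurred in 2 of the 8, Hamp and Tfrc, and in 11% of 33469 rat promoter windows. TTCNNNGAA occurred in 1 of the 8, Hamp, and in 8.87% of all windows. An E-box (CACGTG) occurred in 0 of the 8 and in 6.42% of all windows. The element in Tfrc began 118 bases before the start. These matches describe letters in a window and were not tested for binding.

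Hamp (1387396_at) was well measured, far above the median of each array. Its intensity was lowest at 23.3, with a median of 29.7 and a highest value of 30.9 after 1 day, and 23.1, 31.8 and 39.1 after 4 days, against 12.7, 30.7 and 34.1 in control rats. The groups overlapped, and 3 rats handled for 4 days exceeded every control rat. The log2 fold change was 0.04 after 1 day (95% interval -0.23 to 0.31, adjusted p = 0.952) and 0.18 after 4 days (-0.09 to 0.45, adjusted p = 0.642). Control rats 1, 2 and 3 had 27.3, 12.7 and 22.2, all below the range of 28.8 to 34.1 in control rats 4 to 10. Rat 2 was the lowest of the 30 rats. Without these 3 rats the log2 fold change was -0.17 after 1 day (-0.35 to 0.01) and -0.03 after 4 days (-0.21 to 0.15), with neither passing the test, so the sign of the small difference in Hamp rests on which control rats are used.

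**Figure D2:**
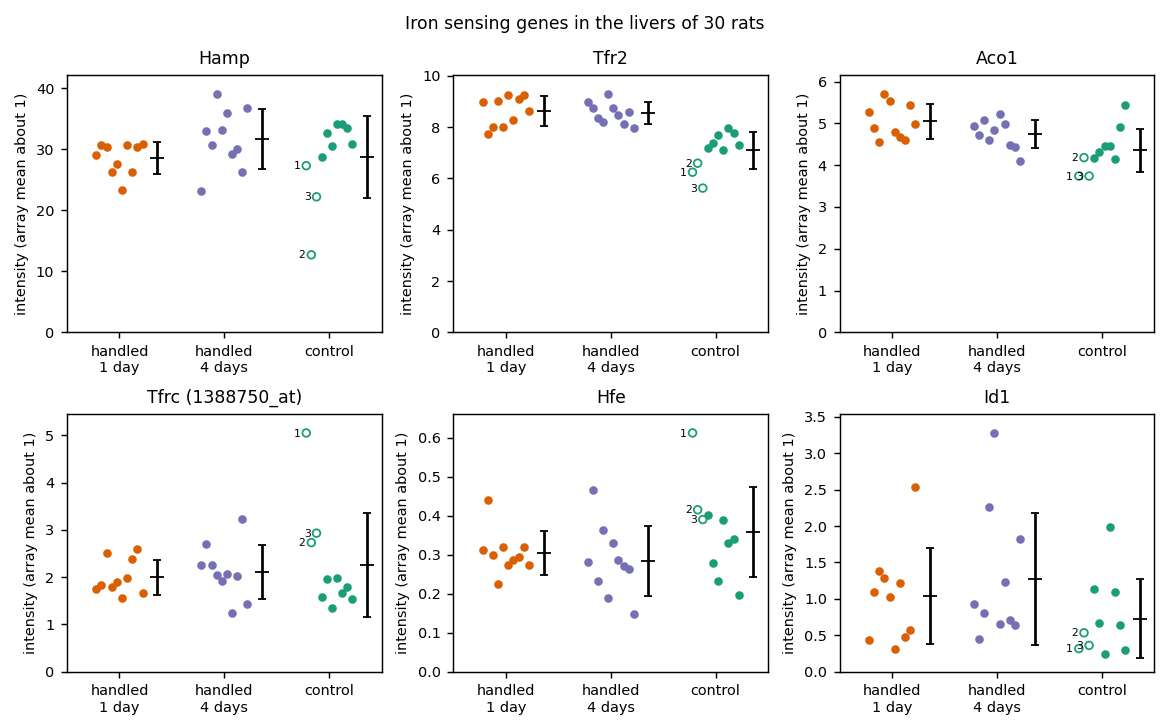
Intensity (y axis, starting at 0) of 6 iron genes in each rat by group (x axis); open circles with numbers are control rats 1, 2 and 3, and black bars give the mean and SD of each group (n = 10). Tfr2 is the gene whose rats handled for 4 days all lie above the control rats, while Hamp and Id1 overlap between groups and control rats 1, 2 and 3 are high for Tfrc.

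Tfr2 (1380066_at) encodes transferrin receptor 2, a sensor of iron-loaded transferrin found mainly in hepatocytes, and in mice and humans loss of the gene lowers hepcidin. After 1 day its intensity was 7.71 at the lowest, 8.80 at the median and 9.26 at the highest, and after 4 days 7.95, 8.53 and 9.30, against 5.62, 7.26 and 7.95 in control rats. After 4 days 10 of 10 rats lay above every control rat, with only a small gap, and after 1 day 9 of 10 did. Of all probe sets, 0.0226% had 4-day values wholly above control. Tfr2 rose 1.22-fold after 1 day (log2 0.29, SE 0.06, adjusted p = 0.0714) and 1.21-fold after 4 days (log2 0.28, SE 0.06, adjusted p = 0.0431). The difference between 4 days and 1 day was -0.01 (95% interval -0.13 to 0.11).

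The control values of Tfr2 split in the same way as those of Hamp. Control rats 1, 2 and 3 had 6.24, 6.59 and 5.62, the lowest of the 30 rats, and control rats 4 to 10 had 7.10 to 7.95. Without control rats 1, 2 and 3 the log2 fold change of Tfr2 was 0.20 after 1 day (0.09 to 0.31, adjusted p = 0.131) and 0.19 after 4 days (0.08 to 0.30, adjusted p = 0.112), so neither call held. With the Gapdh ratio as a covariate the log2 fold changes were 0.30 and 0.29, and the adjusted p was 0.366 and 0.304. The summed hepatocyte markers had medians of 396 after 1 day, 406 after 4 days and 389 in control rats. In whole liver a change in the share of cells of a type and a change in RNA per cell cannot be told apart.

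The call of Tfr2 after 1 day was also lost when any 1 of 11 rats was left out, namely control rats 1, 2, 3 and 4 and rats 1, 2, 4, 6, 7, 8 and 9 handled for 1 day, with an adjusted p of up to 0.159. The call after 4 days was lost in 0 of the 30 fits that left out 1 rat, with log2 fold changes between 0.24 and 0.30.

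HFE, an MHC class I-like protein that binds both transferrin receptors, and TFR1, the Tfrc product that takes up iron-loaded transferrin, did not pass the test after handling. Hfe (1370772_a_at) was dim, with intensities of 0.224 to 0.441 (median 0.297) after 1 day and 0.149 to 0.465 (median 0.277) after 4 days, against 0.197 to 0.612 (median 0.365) in control rats. Its log2 fold change was -0.19 after 1 day (SE 0.18, adjusted p = 0.777) and -0.34 after 4 days (SE 0.18, adjusted p = 0.479), and without control rats 1, 2 and 3 the 4-day value was -0.15 and the 1-day value was within 0.01 of 0. The groups overlapped. Values of control rats 1, 2 and 3 were 0.612, 0.415 and 0.390, and control rats 4 to 10 had 0.197 to 0.402.

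The brighter probe set of Tfrc (1388750_at) had intensities of 1.56 to 2.60 (median 1.87) after 1 day and 1.25 to 3.22 (median 2.05) after 4 days, against 1.35 to 5.05 (median 1.88) in control rats. Here control rats 1, 2 and 3 were high, at 5.05, 2.73 and 2.93, and control rats 4 to 10 had 1.35 to 1.98. The other probe set (1371113_a_at) gave the same split, with 0.609, 0.369 and 0.423 for control rats 1, 2 and 3, whereas control rats 4 to 10 had 0.129 to 0.279. The 2 probe sets rose and fell together over the other 27 rats after centring on the group means, with a Pearson r of 0.83, given as a description.

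Neither Tfrc probe set passed the test. The log2 fold changes of 1388750_at were -0.08 after 1 day and -0.03 after 4 days, and those of 1371113_a_at were -0.11 and -0.13. All 4 changed sign without control rats 1, 2 and 3, to 0.23 and 0.28 and to 0.26 and 0.24, again without passing the test. The intervals of 1388750_at without these rats were -0.08 to 0.53 after 1 day and -0.02 to 0.59 after 4 days.

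Bmp6, the ligand that endothelial cells send to hepatocytes, was dim in whole liver, and only its brightest probe set exceeded the array median in every rat. Its brightest probe set (1388920_at) had 0.142 to 0.292 (median 0.215) after 1 day and 0.159 to 0.266 (median 0.211) after 4 days, against 0.184 to 0.253 (median 0.221) in control rats. The log2 fold changes were -0.04 (95% interval -0.26 to 0.18) and -0.06 (-0.28 to 0.16). Control rats 1, 2 and 3, at 0.224, 0.219 and 0.242, lay within the range of control rats 4 to 10. Each array had a median intensity of 0.118 to 0.125 over its probe sets. Of the other 3 probe sets, 1378427_at was below that median in every rat and 1388201_at exceeded it in 1 rat of each group. The 4 probe sets correlated with each other at -0.17 to 0.44 over 27 rats, and none passed the test at either time.

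Id1, a target that BMP and SMAD signalling switches on in hepatocytes and endothelial cells, varied more between rats than any other of these genes by its SD on the log2 scale. Its intensity (1387028_a_at) was 0.307 to 2.54 (median 1.07) after 1 day and 0.449 to 3.28 (median 0.874) after 4 days, against 0.249 to 1.99 (median 0.591) in control rats. The highest rat had 8.26, 7.30 and 7.99 times the lowest within the rats handled for 1 day, the rats handled for 4 days and the control rats. The log2 fold change was 0.56 after 1 day (SE 0.41, adjusted p = 0.707) and 0.85 after 4 days (SE 0.41, 95% interval 0.02 to 1.68, adjusted p = 0.427). After 4 days 9 of 10 rats exceeded the control median, but the groups overlapped over most of their range. Id1 in control rats 1, 2 and 3 was 0.317, 0.534 and 0.361, and control rats 4 to 10 had 0.249 to 1.99. Without these 3 rats the log2 fold change was 0.31 after 1 day and 0.60 after 4 days, with an interval for 4 days of -0.33 to 1.54. With the Gapdh ratio as a covariate it was 0.95 and 1.31 (adjusted p = 0.698 and 0.51).

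Slc40a1 encodes ferroportin, the only known iron exporter of mammalian cells and the receptor for hepcidin, and its 3 probe sets did not behave alike. On 1376972_at the intensity was 1.32 at the lowest, 1.70 at the median and 1.98 at the highest after 1 day, and 1.31, 1.71 and 1.96 after 4 days, against 0.906, 1.37 and 1.55 in control rats. Of the rats handled for 1 day 8 of 10, and of those handled for 4 days 7 of 10, lay above every control rat. The log2 fold change was 0.36 after 1 day (SE 0.09, adjusted p = 0.19), which did not pass, and 0.37 after 4 days (1.29-fold, SE 0.09, adjusted p = 0.0902), which did. Control rats 1, 2 and 3 had 0.906, 1.04 and 1.20, the lowest of all 30 rats, against 1.34 to 1.55 in control rats 4 to 10. Without them the log2 fold changes were 0.23 (0.06 to 0.40, adjusted p = 0.388) and 0.23 (0.06 to 0.40, adjusted p = 0.242).

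The 4-day call of this probe set was lost with the Gapdh ratio as a covariate (log2 0.32, adjusted p = 0.503). It was also lost when any 1 of 15 rats was left out, with an adjusted p of up to 0.150. These were control rats 1, 2, 3 and 6, rats 2, 5, 7 and 9 handled for 1 day, and rats 1, 3, 5, 6, 7, 8 and 10 handled for 4 days.

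The brightest probe set of Slc40a1 (1390412_at) had 6.57 to 9.43 (median 8.12) after 1 day and 7.11 to 9.18 (median 7.99) after 4 days, against 6.09 to 8.49 (median 7.43) in control rats, with log2 fold changes of 0.16 (adjusted p = 0.504) and 0.11 (adjusted p = 0.624). The third, 1387130_at, had medians of 3.15, 3.31 and 2.80 after 1 day, after 4 days and in control rats, with log2 fold changes of 0.17 and 0.18 that did not pass. On 1390412_at control rats 1, 2 and 3 had 6.09, 6.53 and 7.14, and control rats 4 to 10 had 6.90 to 8.49. On 1387130_at they had 1.87, 2.06 and 2.64, just below the 2.64 to 4.22 of the others. Without these 3 rats the log2 fold changes were 0.09 and 0.03 on 1390412_at and 0.01 and 0.02 on 1387130_at. With the Gapdh ratio as a covariate those of 1387130_at were 0.35 and 0.39, again without passing. Over 27 rats 1390412_at and 1387130_at correlated at 0.83, but 1376972_at correlated with them at -0.02 and -0.03. The probe set that passed the test thus varied between rats apart from the other 2, and which transcripts each one reads was not tested.

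**Figure D3:**
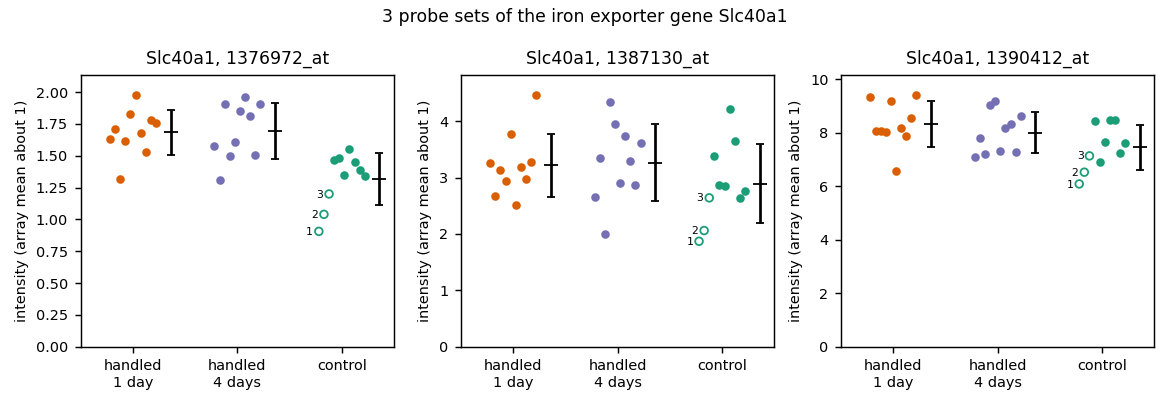
Intensity (y axis, starting at 0) of the 3 probe sets of Slc40a1 in each rat by group (x axis), with control rats 1, 2 and 3 as numbered open circles and the mean and SD in black (n = 10). After 4 days 7 of 10 rats lie above every control rat on 1376972_at, whereas the groups overlap more on the other 2 probe sets.

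Ferroportin is abundant in the macrophages of the liver, the Kupffer cells. The summed intensity of 7 measured Kupffer cell markers of 9, among them the hemoglobin scavenger Cd163, was 26.9 to 43.5 (median 33.8) after 1 day and 22.6 to 31.4 (median 27.5) after 4 days, against 25.5 to 41.0 (median 32.1) in control rats. The sums in control rats 1, 2 and 3 were 26.2 to 30.9, and the median of control rats 4 to 10 was 33.4. The log2 fold change was above 0 for 6 of the 7 markers after 1 day. After 4 days it was below 0 for 6 of the 7. None passed the test, with C1qc, a complement chain made by macrophages, at -0.38 (adjusted p = 0.112). Without control rats 1, 2 and 3 only 1 of the 7 was above 0 at each time, with medians of -0.04 and -0.33. The 1-day direction of these markers thus depended on the 3 rats. Of the 45 measured markers of all cell types only Nkg7, a granule gene of NK and T cells, passed, at -0.42 after 4 days (adjusted p = 0.0902). The sum of 7 erythroid markers of 9 had medians of 20.6, 20.4 and 16.0 after 1 day, after 4 days and in control rats, with overlapping ranges (12.9 to 26.2, 10.8 to 32.2 and 12.3 to 24.5). In control rats 1, 2 and 3 the erythroid sums were 14.5 to 24.5, and in control rats 4 to 10 they were 12.3 to 23.8. Epb42 and Rhag were below the array median on all arrays. The part of these cells in the values of Slc40a1 and Tfrc was not tested.

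Aco1 (1386916_at) encodes a protein that is cytosolic aconitase when it holds an iron-sulfur cluster and iron-regulatory protein 1 when it does not. Its intensity was 4.56 to 5.71 (median 4.95) after 1 day and 4.10 to 5.22 (median 4.78) after 4 days, against 3.74 to 5.43 (median 4.25) in control rats. All 10 rats handled for 1 day and 9 of 10 handled for 4 days exceeded the control median, and 3 rats handled for 1 day exceeded every control rat. The log2 fold change was 0.22 after 1 day (SE 0.07, adjusted p = 0.274) and 0.13 after 4 days (SE 0.07, adjusted p = 0.475), so neither passed. The values were 3.74, 4.18 and 3.74 in control rats 1, 2 and 3, and control rats 4 to 10 had 4.14 to 5.43. Rats 1 and 3 were the lowest of the 30. Without the 3 rats the log2 fold change was 0.15 after 1 day and 0.06 after 4 days.

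Control rats 1, 2 and 3 were all below control rats 4 to 10 on 4 of the 14 probe sets, those of Hamp, Tfr2 and 2 of Slc40a1. They were all above on 2, both of Tfrc. The share of all probe sets that split in this way was not computed. As these rats stood apart over all probe sets, the counts do not show a trait particular to iron genes. These 3 rats entered every fold change against control, and they were not chosen for their iron genes.

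Whether Hamp varied from rat to rat with the other measured genes of the circuit was asked over the 27 other rats. Each log2 value was centred on its group mean, with 7 relations and a permutation test within groups. Hamp correlated most with the brightest probe set of Slc40a1, with r = 0.52 (permutation p = 0.0076, adjusted over 7 relations p = 0.0532) and rho = 0.45 (permutation p = 0.027). Without the 2 rats farthest from the median of Slc40a1, r was 0.42 (permutation p = 0.051). Within groups r was 0.66 after 1 day, 0.61 after 4 days and -0.06 in control rats 4 to 10. Within the 1-day rats it rested on the 2 farthest rats, with r = 0.04 without them. Whether the relation differs between groups was not tested. Over all 30 rats r was 0.52 (adjusted permutation p = 0.021). That permutation mixed control rats 1, 2 and 3 with control rats 4 to 10. On average the 3 rats were lower than control rats 4 to 10 for both genes, by log2 differences of -0.70 for Hamp and -0.25 for Slc40a1. The value over 30 rats thus also holds the split between the control rats.

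Id1 correlated with Hamp at r = 0.42 (permutation p = 0.027, adjusted p = 0.0945) and rho = 0.47 (permutation p = 0.016, adjusted p = 0.0945) over 27 rats, and 0.39 without the 2 farthest rats (permutation p = 0.038). The correlations with Slc40a1 and with Id1 were not tested against each other. Within groups r was 0.61, 0.39 and 0.40 in rats handled for 1 day, in rats handled for 4 days and in control rats 4 to 10. The relation of Hamp with Tfr2 was -0.32 (rho -0.32, permutation p = 0.11 for both). With Bmp6, Hfe, Tfrc and Aco1, r lay between -0.10 and 0.14 with permutation p of 0.5 to 0.82. None of the 7 relations passed an adjusted p of 0.05 over the 27 rats.

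**Figure D4:**
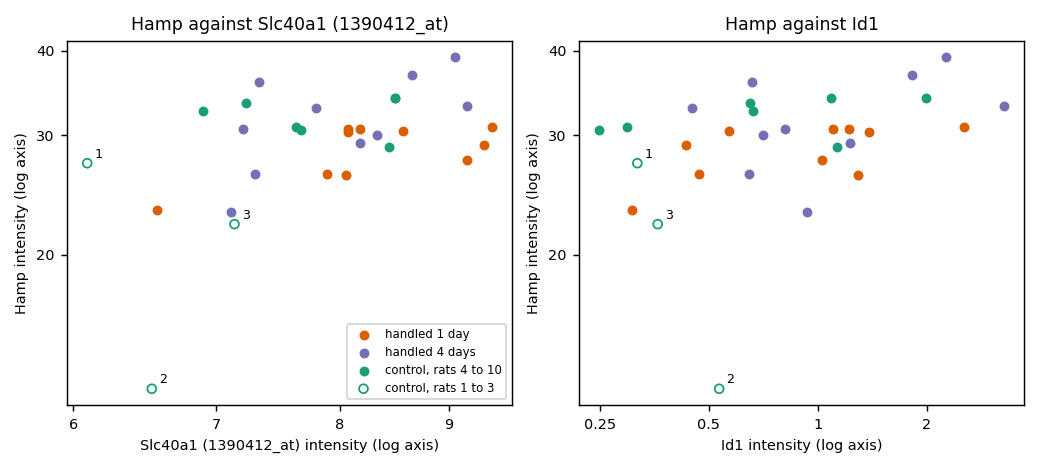
Hamp intensity (y axis) against that of Slc40a1 (1390412_at, left) and Id1 (right), all axes logarithmic, 1 point per rat with colours for the groups and numbered open circles for control rats 1, 2 and 3. Over 27 rats after centring on group means, r was 0.52 for this probe set of Slc40a1 and 0.42 for Id1. Neither passed an adjusted permutation p of 0.05. Within groups r with Slc40a1 was 0.66 after 1 day, 0.61 after 4 days and -0.06 in control rats 4 to 10.

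Among 12132 probe sets of 1 symbol above the median intensity, the 5 whose centred log2 values were most like those of Hamp over the 27 rats were Adamts10 (r = 0.73), Arrdc2 (0.67), Slc49a4 (0.64), Cox18 (0.64) and Hid1 (0.63). Over all 30 rats their r was 0.57, -0.30, 0.74, -0.02 and 0.13, so of the 5 only Adamts10 and Slc49a4 were above 0.5 both ways. For Tfr2 the 5 were Sqor (0.67), Ppp1r12c (0.64), Dmgdh (0.62), Dusp6 (0.61) and Chek1 (0.60), with 0.60, 0.10, 0.48, 0.25 and -0.34 over 30 rats. These are the highest of many correlations and are given as a description.

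The wider iron circuit showed no gene that passed the test. Of 68 genes in 6 lists, 60 had a probe set of their own, and 0 were called by limma in any comparison. At an unadjusted p under 0.05 there were 7 of 60 after 1 day (11.7%) and 13 of 60 after 4 days (21.7%). Over all probe sets, dim ones included, the shares were 9.33% and 11.3%. In the limma fit with 1 probe set per gene, as in the lists, 1715 and 1939 of 14217 genes were under 0.05. After 1 day the lists were thus not above the share of all genes. The smallest adjusted p in the lists was 0.289 and 0.189. Between 4 days and 1 day, 2 of the 60 had an unadjusted p under 0.05. The median log2 fold change over the 60 was 0.03 after 1 day and 0.08 after 4 days.

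The BMP and SMAD list of 14 genes holds carriers of the signal and also targets of it, such as Id2. Its median log2 fold change was 0.03 after 1 day and 0.10 after 4 days. After 4 days 4 of the 14 had an unadjusted p under 0.05. Id2, a target gene like Id1, had medians of 4.82 after 1 day, 5.62 after 4 days and 4.17 in control rats, and its log2 fold changes were 0.15 after 1 day and 0.39 at the later time (adjusted p = 0.225). Bmpr1a, a type I receptor for BMP ligands, had 0.409, 0.440 and 0.386 in the same order, with 0.09 and 0.18 (adjusted p = 0.268).

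Of the hepcidin inhibitors 5 of 7 were measured. Gdf15, a secreted protein of the TGF-beta superfamily, had medians of 0.145 after 1 day, 0.10 after 4 days and 0.188 in control rats, and control rats 1, 2 and 3 had 0.486, 0.394 and 0.611 against a median of 0.141 in control rats 4 to 10. Its log2 fold change was -0.50 after 1 day and -1.03 after 4 days (SE 0.35, adjusted p = 0.232). Without control rats 1, 2 and 3 the 4-day value, still the lowest of the list, was -0.50. In that fit 0 inhibitors had an unadjusted p under 0.05 after 4 days. Gdf15 was also dim, with a 4-day median below the median of every array. Furin, a protease that cuts hemojuvelin into a form that competes for BMP ligands, had 2.60, 2.81 and 2.58 and its log2 fold changes were 0.07 after 1 day and 0.15 at the later time (adjusted p = 0.329).

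In uptake and storage, 11 of 13 genes were measured, with medians of -0.07 after 1 day and -0.03 after 4 days. Cybrd1, a ferric reductase, was dim, with medians of 0.119, 0.132 and 0.140 after 1 day, after 4 days and in control rats, and log2 fold changes of -0.26 (adjusted p = 0.515) and -0.05. Ncoa4, which delivers ferritin to lysosomes for iron release, had 5.05, 5.23 and 5.14, with 0.08 and 0.12 (adjusted p = 0.761 and 0.559).

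The genes of iron export and of scavenging of heme and hemoglobin numbered 11, with median log2 fold changes of 0.08 after 1 day and 0.12 at the later time. Of these 8 were above 0 at each time, none passed, and 3 and 5 had an unadjusted p under 0.05. Lrp1, the receptor that clears heme bound to hemopexin, had medians of 7.62 after 1 day, 7.96 after 4 days and 6.56 in control rats, with log2 fold changes of 0.27 (SE 0.09, adjusted p = 0.289) and 0.27 (SE 0.09, adjusted p = 0.199). Cp, which encodes the ferroxidase ceruloplasmin that works with ferroportin, had 51.6, 51.6 and 47.6, with 0.12 after 1 day and 0.12 after 4 days (adjusted p = 0.460 and 0.320).

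Of the genes of mitochondrial iron and iron-sulfur assembly 6 of 10 were measured, with medians of -0.07 and -0.04. Slc25a28, a carrier that brings iron into mitochondria, had medians of 0.629 after 1 day, 0.611 after 4 days and 0.750 in control rats, with log2 fold changes of -0.19 (adjusted p = 0.493) and -0.24 (adjusted p = 0.251). Glrx5, which passes iron-sulfur clusters on, had 6.91, 7.52 and 7.93, and control rats 1, 2 and 3 were higher, at 10.2, 10.1 and 9.14. Its log2 fold changes were -0.16 and -0.10 (adjusted p = 0.562 and 0.698).

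The IL-6 and STAT3 inputs and their acute phase targets, 13 genes, had a median of 0.12 after 1 day and 0.19 after 4 days, and 1 gene at each time had an unadjusted p under 0.05. Stat3, a factor of the family that binds palindromes of the kind shown in the Hamp promoter, had medians of 2.35 after 1 day, 2.63 after 4 days and 1.97 in control rats, with log2 fold changes of 0.17 (adjusted p = 0.709) and 0.40 (SE 0.13, adjusted p = 0.189). Orm1, an acute phase plasma protein, had 19.5, 18.9 and 13.3, with 0.38 (adjusted p = 0.530) and 0.32 (adjusted p = 0.527). Without control rats 1, 2 and 3 the medians of this list were 0.05 and 0.07, and those of the BMP and SMAD list were -0.06 and 0.03. In that fit 3 of the 13 IL-6 and STAT3 genes at each time had an unadjusted p under 0.05, and none passed. Their log2 fold changes ran from -0.29 to 1.10 after 1 day and from -0.17 to 0.80 after 4 days. With all rats these ranges were -0.13 to 0.59 and -0.07 to 0.40.

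**Figure D5:**
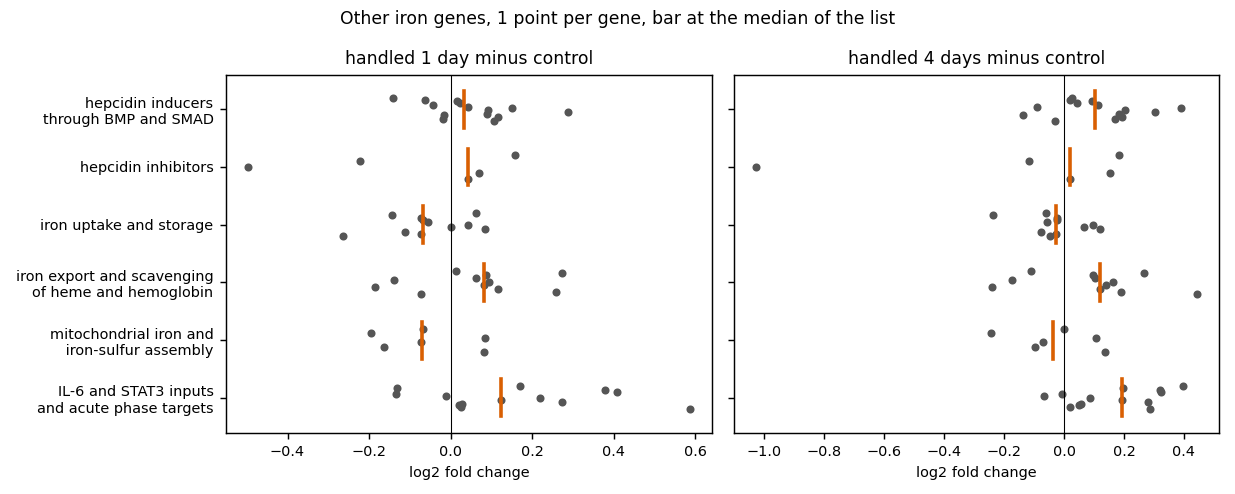
Log2 fold change against control (x axis) of the 60 other iron genes in 6 lists (y axis) after 1 day (left) and 4 days (right), 1 point per gene, with an orange bar at the median of each list. Gdf15 after 4 days is lowest at -1.03 (-0.50 without control rats 1, 2 and 3), and no gene passed the test.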

How the data were processed

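Total RNA of 30 livers was labelled and hybridised to Affymetrix Rat Genome 230 2.0 arrays. The table deposited by the authors holds 1 linear intensity per probe set and array, and each array averages about 1. The methods name Affymetrix GeneChip Operating Software for data analysis and Rosetta Resolver for ratios. How probes were summarised into the deposited intensities is not given in the sources used here. The authors' own log ratios were not used. Intensities were turned to log2 with no offset, 57 Affymetrix control probe sets were left out, and 31042 were fitted in limma 3.58.1 (R 4.3.3) with 3 groups of 10 rats, two-sided, with Benjamini-Hochberg adjustment over all of them. Probe sets under an adjusted p of 0.1 were called. The pipeline was tested on simulated data. No identical arrays were found. Precision is limited by the number of arrays.

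Gene symbols came from the platform annotation, updated to RefSeq through the gene identifier, and 20826 tested probe sets carried 1 symbol. In lists and relations each gene is represented by its probe set of highest mean. The members and lists were chosen with earlier results of these data known. Of each list the 2 genes with the smallest p against control are named, and for Hamp and Tfr2 the 5 probe sets of highest correlation. Relations were tested in Python 3.11.15 with up to 100000 permutations within groups. 8 relations had been planned and 7 were run, since Tf had no probe set of its own.

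Alternatives were an adjusted p under 0.05, an offset of 0.05, quantile normalization, array weights, the Gapdh ratio as a covariate, leaving out control rats 1, 2 and 3, a replicate block, 2-group fits, the methods' t-test, an exact rank-sum test, leaving out the dimmest 40% of probe sets, 1 probe set per gene, and leaving out each of the 30 rats.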

Additional observations from a re-analysis of the deposited data

Results flagged for a closer look

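Within each group of 10 rats, 5 values lay far from the rest by Dixon's criterion, out of 42 sets of 10 values checked, where chance flags about 1 in 20. Hamp in control rat 2 had an intensity of 12.7, far below the other control rats. Hfe in rat 2 handled for 1 day had 0.441, far above the others of its group. Slc40a1 (1390412_at) in rat 6 handled for 1 day had 6.57, far below the others. Bmp6 in rat 10 handled for 4 days was far below the others on 2 dim probe sets, with 0.0402 on 1388201_at and 0.0247 on 1378427_at.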

How the results depend on the processing

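Of 1160 recomputed fold changes of the 14 probe sets, 1071 kept their direction and their side of the threshold, 43 lost a call, 1 gained one and 45 changed sign. The number of iron probe sets called after 1 day was 1. It was 0 at an adjusted p under 0.05, with array weights, with the Gapdh covariate, without control rats 1, 2 and 3, with the replicate block and in the 2-group fit, and 2 without the dimmest 40% of probe sets. After 4 days it was 2. It was 1 at an adjusted p under 0.05, with array weights, with the block, by the methods' t-test, by the exact rank-sum test and with 1 probe set per gene, and 0 with the Gapdh covariate, without control rats 1, 2 and 3 and in the 2-group fit. Leaving out single rats gave 0 to 1 after 1 day, 1 to 2 after 4 days and 0 to 0 between 4 days and 1 day.

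Of all probe sets, 28 were called after 1 day. There were 1 at an adjusted p under 0.05, 45 with the offset, 0 with the Gapdh covariate, 102 without control rats 1, 2 and 3, 1 in the 2-group fit, 55 by the methods' t-test, 113 without the dimmest 40% and 64 with 1 probe set per gene. After 4 days 204 were called, against 70 at an adjusted p under 0.05, 346 with the offset, 5 with the Gapdh covariate, 27 in the 2-group fit and 493 without the dimmest 40%. Between 4 days and 1 day the Gapdh covariate gave 1. Leaving out single rats gave 1 to 44 after 1 day, 86 to 307 after 4 days and 0 to 0 between them. After 1 day the count moved over 1.5 times without control rats 1, 3, 4 or 8 or rats 1 to 8 handled for 1 day, and after 4 days without control rats 1, 3, 6 or 7 or rats 3, 5, 6, 8 or 10 handled for 4 days.

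Replicate numbers are shared between groups. Same-numbered rats correlated at -0.0382 to 0.118 (median 0.0475), with 1 of 30 pairs over 0.1. Among rats of the other groups, 8 of 30 rats correlated best with a rat of their own number. The count expected by chance was not computed. With a replicate block, 0, 1 and 0 iron probe sets were called after 1 day, after 4 days and between them, and 2, 85 and 0 of all probe sets.

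Changes of sign, all of values that were not called, were as follows. With array weights Hamp was -0.068 after 1 day, Tfrc 1388750_at 0.056 and 0.12 after 1 and 4 days, Tfrc 1371113_a_at 0.050 and 0.034, Bmp6 1388201_at 0.052 after 1 day and Bmp6 1378827_at -0.095 after 1 day. With the Gapdh covariate Tfrc 1388750_at was 0.031 after 4 days, Tfrc 1371113_a_at 0.10 and 0.12, Bmp6 1388920_at 0.013 and 0.0056, and Bmp6 1388201_at 0.15 and 0.13. Without control rats 1, 2 and 3 Hamp was -0.17 and -0.029, Tfrc 1388750_at 0.23 and 0.28, Tfrc 1371113_a_at 0.26 and 0.24, Bmp6 1388201_at 0.092 and 0.046, and Bmp6 1378827_at -0.27 and -0.15. Leaving out single rats, the ranges that crossed 0 were -0.087 to 0.071 for Hamp after 1 day, -0.15 to 0.058 and -0.10 to 0.12 for Tfrc 1388750_at after 1 and 4 days, -0.22 to 0.031 and -0.24 to 0.0092 for Tfrc 1371113_a_at, -0.094 to 0.021 for Bmp6 1388920_at after 1 day, -0.085 to 0.069 and -0.13 to 0.063 for Bmp6 1388201_at, and -0.10 to 0.23 for Bmp6 1378827_at after 1 day. The correlations of Hamp that changed sign were 0.26 over 30 rats and 0.34 within control rats 4 to 10 for Tfr2, 0.046 as Spearman, 0.020 without the 2 farthest rats, 0.35 within 1 day and 0.64 within control rats 4 to 10 for Tfrc, 0.17 over 30 rats for Aco1, -0.15 over 30 rats and -0.018 within 4 days for Hfe, and -0.057 for Slc40a1 and -0.052 for Bmp6 within control rats 4 to 10. Beyond the alternatives' own construction the cause was not tested. The low intensities of the probe sets of Bmp6 and Hfe limit what could be read from them.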
